A study of Mus musculus with 6 samples.

Results

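The gene expression of immature dendritic cells (DC) grown with the p38 inhibitor SB202190 was set against that of immature DC grown with its solvent DMSO, with 1 array on each side. A gene was counted when its probe was called above background, at a detection p under 0.01, on at least 1 of the 2 arrays. This held for 8945 of the 19057 genes with a named probe. Of these, 8301 were above background on both arrays, 288 on the SB202190 array only and 356 on the DMSO array only. The genes just inside that limit were dim: 28 genes with a detection p of 0.0096 had a median intensity of 44.3 on the brighter array and log2 differences from -0.47 to 0.68, and the 58 genes just outside it had a median of 42.6 and differences from -0.89 to 0.68.

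The cells came from the bone marrow of C57BL/6 mice and were cultured with mouse GM-CSF at 20 ng/ml. The immature DC were the semi-adherent fraction at day 7 of culture with SB202190, whose concentration is labelled 1.5 mM, or with 0.1% DMSO. The mM unit could not be checked against the data. The series has another pair of arrays from pre-DC, cells after 2 days of the same culture, and a pair from mature DC, for which immature DC were stimulated for 48 h with 2 cytokines, TNF-a at 10 ng/ml and IL-1b at the same dose. Every stage had 1 SB202190 array and 1 DMSO array, so the study has 6 arrays in all. The labels give neither the sex and age of the mice nor whether animals were pooled, whether the semi-adherent cells were purified further, whether the 3 stages came from the same cultures, or whether the inhibitor was kept during maturation. With 1 array a side, a difference between the 2 immature DC arrays has no replicate check. It is given below as a size without a p-value, and it compares 2 RNA samples.

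The p38 kinases are stress-activated MAP kinases that act downstream of Toll-like, cytokine and growth factor receptors. They phosphorylate substrate kinases such as MK2 as well as transcription factors, and control the stability of cytokine mRNAs. SB202190 is a pyridinyl imidazole that binds the ATP pocket of p38 alpha and p38 beta. Under GM-CSF, marrow progenitors give rise to a mixed population of DC, macrophages and granulocytes. Immature DC take up antigen, and on maturation they raise MHC and costimulatory molecules and move to lymph nodes, where they activate T cells.

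The label of the cells was compared with their markers. Both arrays carried transcripts of DC and of GM-CSF-grown myeloid cells. The invariant chain gene Cd74, which guides MHC class II molecules, had normalized intensities of 46928 on the SB202190 array and 42279 on the DMSO array. The class II gene H2-Ab1 had 37218 with SB202190 and 33546 with DMSO. Itgax, which encodes the DC integrin CD11c, had 99.1 with SB202190 and 86.4 with DMSO. The GM-CSF receptor gene Csf2ra had 4768 with SB202190 and 5095 with DMSO. Of the 31 DC identity markers 27 were counted, and Flt3, Xcr1, Cd24a and Epcam were not above background on either array. Csf1r, the macrophage colony-stimulating factor receptor, was also well above background at 3906 with SB202190 and 3469 with DMSO. Intensities are those of each gene's own probe, on a linear scale after background correction and with an offset of 16 added, and levels of different genes cannot be set against each other.

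The 2 arrays were close to each other. Between them 16001 probes were above background, and their log2 intensities had a Pearson correlation of 0.987 across probes. Over the 8945 genes the log2 difference, SB202190 minus DMSO, had a median of 0.01 and an SD of 0.34. It ran from -2.09 to 2.09, and 90% of genes lay between -0.56 and 0.55. There were 4629 genes higher and 4303 lower with SB202190. At least 1.5-fold higher were 394 genes, or 4.4% of those counted, and at least 1.5-fold lower were 397, or 4.44%. At the 2-fold limit there were 53 higher genes (0.593%), 42 of them above background on both arrays. Lower at that limit were 47 (0.525%), 30 of them above background on both. The 2-fold counts depend on the background correction: without it they were 8 higher and 10 lower, and with an offset of 50 they were 23 and 17. Differences were wider among dim genes. The SD was 0.42 in the dimmest of 3 equal groups of genes, 0.31 in the middle one and 0.27 in the brightest, and the brightest group held 8 of the 2-fold higher and 6 of the 2-fold lower genes.

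**Figure D1:**
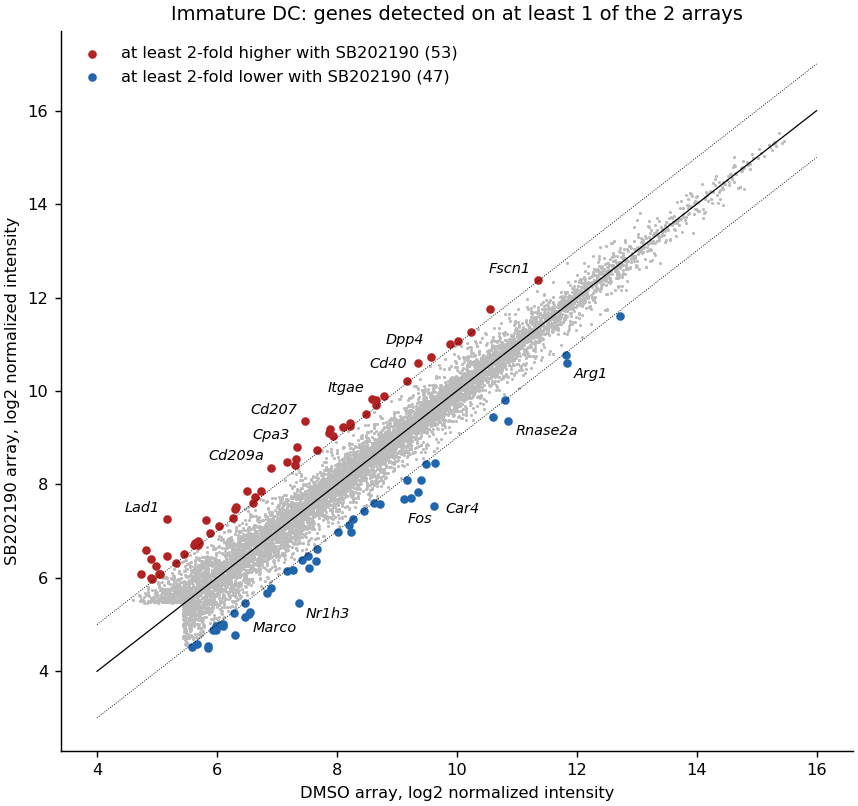
Log2 normalized intensity of 8945 genes in immature DC on the SB202190 array (vertical axis) against the DMSO array (horizontal axis), 1 point per gene; the solid line marks equal levels and the dotted lines a 2-fold difference. The 53 red genes, such as Cd207, Cd40 and Fscn1, lie at least 2-fold above the line and the 47 blue genes, such as Car4, Fos and Arg1, at least 2-fold below it.

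A yardstick for these differences is the agreement of separate probes of a gene on the same 2 arrays, which measures the probes and not the cultures. Over 3022 genes with more than 1 probe above background on both arrays, the SD between probes of a gene was 0.20 on the log2 scale. Of the 53 genes at least 2-fold higher, 21 had 32 other probes above background on at least 1 array. All 32 were higher too, 28 of them at least 1.5-fold, with a median of 0.86 and a range from 0.24 to 2.18. Some of the 32 were above background on the SB202190 array only, which favours that sign. A Cpa3 probe, at 55.8 with SB202190 and 39.0 with DMSO, was 1 of them. Of the 47 genes at least 2-fold lower, 12 had 1 other probe each by the same limit. These 12 were all lower, 8 of them at least 1.5-fold, with a median of -0.96 and a range from -1.56 to -0.25. The genes whose other probe stayed under 1.5-fold were Cpa3, Itgae, Ky and Serpinf1 among the higher and Hip1, Sh3bgrl2, Slc35a5 and Tmem273 among the lower. Of these, Ky, Hip1, Sh3bgrl2, Slc35a5 and Tmem273 were chosen after their values were seen.

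**Figure D2:**
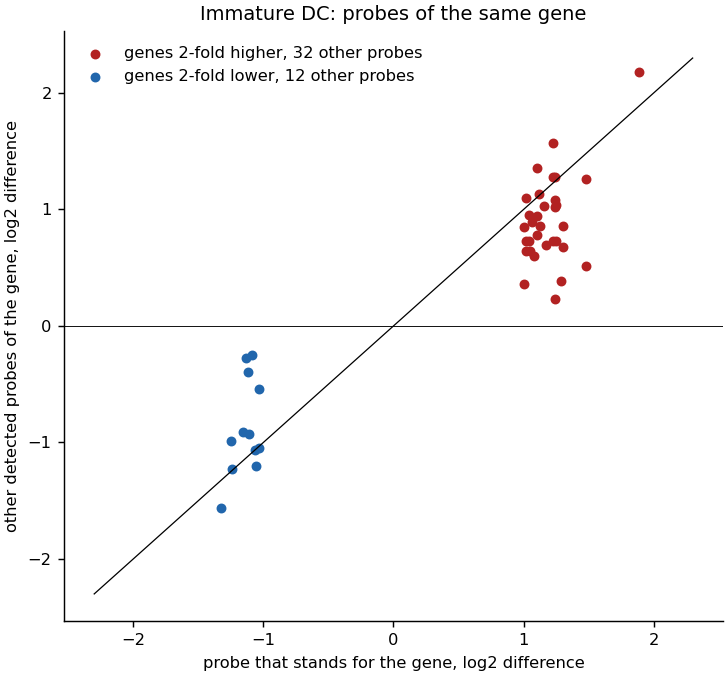
Log2 difference between the SB202190 and DMSO arrays of immature DC for other probes above background (vertical axis) against the probe that stands for the gene (horizontal axis); the diagonal marks equal differences. All 32 other probes of 2-fold higher genes (red) lie above 0 and all 12 of 2-fold lower genes (blue) lie below it.

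Transcripts of DC surface receptors and lineage genes were higher with SB202190. Of the 27 DC identity genes counted 23 were higher and 4 lower, with a median log2 difference of 0.65 against 0.01 over all genes. At least 1.5-fold higher were 15 of them, against 4.4% of all genes, and 0 were 1.5-fold lower. The 4 lower genes of the list were Id2, Sirpa, Clec10a and Cd1d1, the lowest being Cd1d1 at -0.25. This and the other lists were chosen with earlier results of these data known, so such shares are a description only. The shares of all genes past 1.5-fold, 4.4% higher and 4.44% lower, belong beside the count of every list below. The gene with the highest difference among those above background on both arrays was Cd207, which encodes langerin, the C-type lectin of Langerhans cells and some other DC. Its intensity was 653 on the SB202190 array and 176 on the DMSO array, 3.70-fold higher, and its other probe was higher by 2.18 on the log2 scale. Cd207 was not on the list. In bulk RNA, fewer cells of a type and less RNA per cell cannot be told apart. Neutrophil markers, described further on, were lower in the same pair of arrays (24 of 27, summed intensity 65115 with SB202190 and 86779 with DMSO), and their part in the differences of other genes was not tested.

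Single lectin, integrin and surface enzyme genes of DC were higher, while the lectins and the integrins had no direction as lists. Of 19 C-type lectins counted 10 were higher and 9 lower, with a median log2 difference of 0.02, with 5 past 1.5-fold upwards and 2 past it downwards. These 2 were Clec5a, a receptor of myeloid cells, at 156 with SB202190 and 272 with DMSO, and Mrc1, described with the macrophage markers. Of 12 integrins 6 were higher and 6 lower, with a median of -0.04. Cd209a, a mouse homologue of the pathogen receptor DC-SIGN, had 329 with SB202190 and 119.8 with DMSO, 2.75-fold higher. Its relative Cd209c had 895 with SB202190 and 401 with DMSO, 2.23-fold higher. Another relative, Cd209d, had 88.3 with SB202190 and was not above background with DMSO (36.1), at least 2.05-fold higher. These lectin genes are alike in sequence, so their probes may read one another. Itgae, which encodes the integrin CD103 of migratory and intestinal DC, had 906 with SB202190 and 382 with DMSO. Dpp4, the surface peptidase CD26, had 1700.5 with SB202190 and 762 with DMSO. Kit, the receptor for stem cell factor, had 603 with SB202190 and 276 with DMSO.

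Several transcription factors of conventional DC were higher as well. Mycl, a MYC family member expressed in DC, had 1494 with SB202190 and 751 with DMSO, 1.99-fold higher. Irf8, which is needed for cross-presenting and plasmacytoid DC, had 1101 with SB202190 and 637 with DMSO, 1.73-fold higher. Irf4, its relative in other conventional DC, had 2475 with SB202190 and 1780 with DMSO, 1.39-fold higher. On the DC identity list, Batf3 was 1.18-fold higher at 878 with SB202190 and 745 with DMSO. Id2 was 1.05-fold lower at 4401 with SB202190 and 4625 with DMSO. Zbtb46, a marker factor of conventional DC, had 253 with SB202190 and 149 with DMSO. The mean log2 difference over all its probes was -0.01, but that mean takes in probes not above background on either immature DC array. Batf, an AP-1 family factor, was lower at 172 with SB202190 and 349 with DMSO, and so was Cebpe, a factor of granulocyte maturation, at 238 with SB202190 and 360.4 with DMSO. Over the 26 counted transcription factors of myeloid cells the signs were even, 13 higher and 13 lower, with a median of -0.03.

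Genes of costimulation and maturation were higher with SB202190 in these cells, which had not yet been given the maturation cytokines. Of 24 genes counted 22 were higher and 2 lower, the median log2 difference was 0.67, and 13 were at least 1.5-fold higher, against 4.4% of all genes. The list shares Fscn1, Traf1 and Ccr7 with the DC identity list and was likewise chosen with earlier results of these data known. Cd40, the receptor through which T cells license DC, had an intensity of 1556 on the SB202190 array and 655 on the DMSO array, 2.37-fold higher, and its other 2 probes were higher by 0.73 and 1.04 on the log2 scale. Cd86, a ligand of CD28, had 6823 with SB202190 and 3676 with DMSO, 1.86-fold higher. Its relative Cd80 had 1006 with SB202190 and 691 with DMSO, 1.46-fold higher, while another probe of Cd80 had a log2 difference of -0.08.

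Other genes of the list were those of movement, signalling and contact with T cells. Fscn1, the actin-bundling protein of dendrites, had 5334 with SB202190 and 2609 with DMSO. Cd83, a maturation marker that stabilizes surface MHC class II, had 5179 with SB202190 and 3109 with DMSO. Ccr7, the receptor for lymph node homing, had 1727 with SB202190 and 1036 with DMSO. Tnfrsf9, the costimulatory receptor 4-1BB, had 2006 with SB202190 and 1005 with DMSO, and Ccl22, a chemokine made by mature DC, had 301 with SB202190 and 152 with DMSO. The adenylyl cyclase gene Adcy6 had 836 with SB202190 and 401 with DMSO. Tnfsf4, the OX40 ligand, was 1.43-fold higher at 102 with SB202190 and 71.6 with DMSO, and the inhibitory ligand Cd274 was 1.18-fold higher at 6718 with SB202190 and 5679.5 with DMSO. The gene with the highest measured difference of all, Lad1, is on the list too and encodes ladinin, a basement membrane protein. It had 153 with SB202190 and was not above background with DMSO (35.8), at least 3.54-fold higher.

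**Figure D3:**
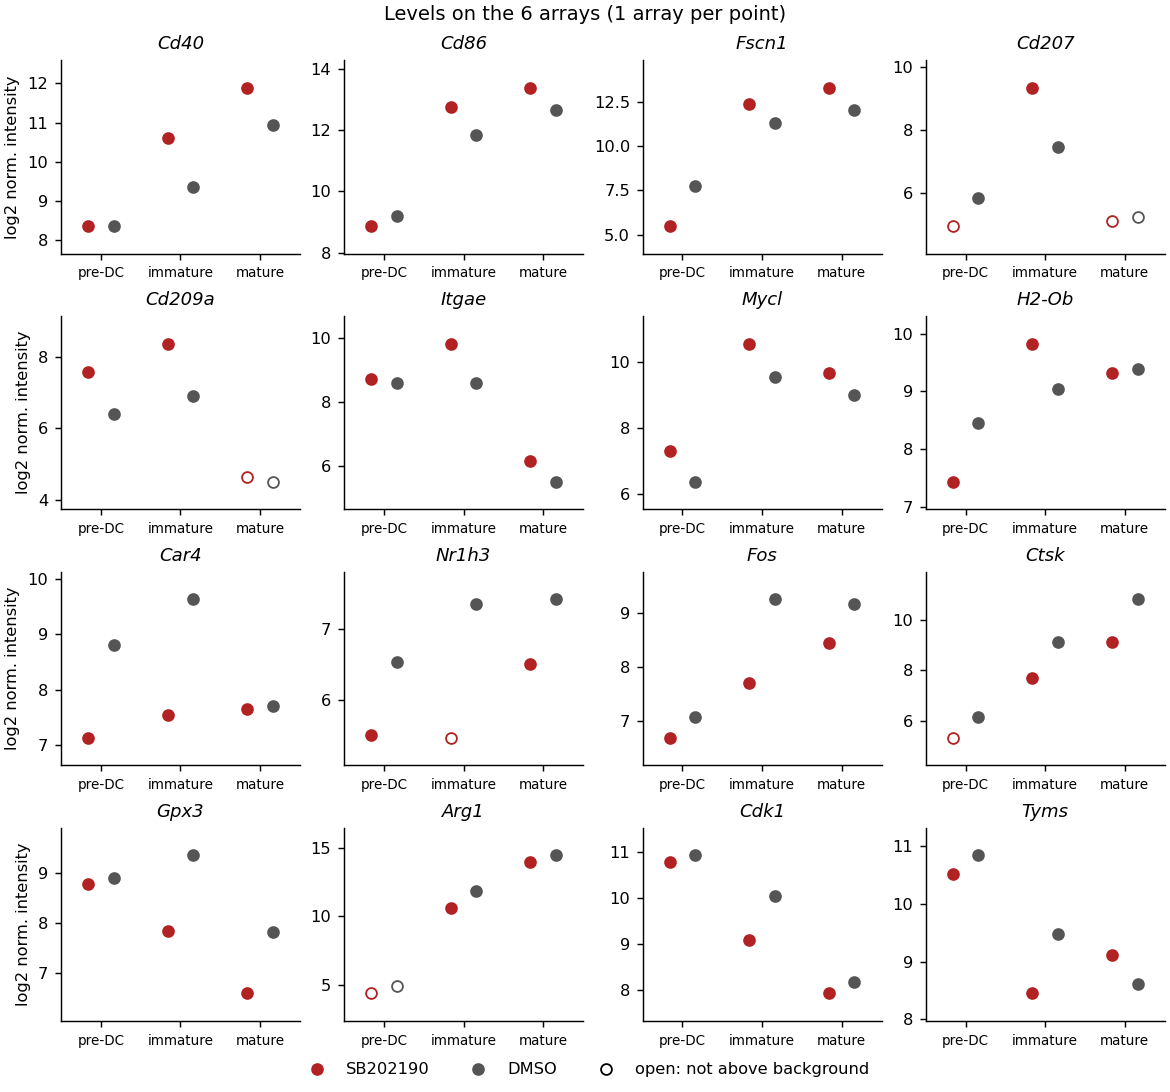
Log2 normalized intensity of 16 genes on the 6 arrays, by stage (horizontal axis), with SB202190 in red left of DMSO in grey; each point is 1 array, open points are not above background, and each panel has its own vertical scale that does not start at 0. In immature DC the SB202190 point lies above the DMSO point for the 8 genes of the upper rows, Cd40 to H2-Ob, and below it for the 8 genes of the lower rows, Car4 to Tyms.

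Antigen presentation genes of class II were also mostly higher. Of 16 class II genes counted 13 were higher and 3 lower, with a median of 0.20 and 5 at least 1.5-fold higher, against 4.4% of all genes. The gene with the largest difference among those on the list was H2-Ob, a chain of the H2-O protein that restrains peptide loading, at 909 with SB202190 and 525 with DMSO, 1.73-fold higher. The partner chain H2-Oa had 3034 with SB202190 and 1864 with DMSO, 1.63-fold higher. Ciita, the activator on which class II transcription depends, had 2625 with SB202190 and 1674 with DMSO, 1.57-fold higher. The class II alpha chain gene H2-Aa had 9504 with SB202190 and 6286 with DMSO, whereas Cd74 and H2-Ab1, given above, were 1.11-fold higher. H2-Eb2, a class II beta chain gene outside the list, had 355 with SB202190 and 144 with DMSO, 2.46-fold higher.

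Class II promoters are known for an SXY module that ends in a CCAAT-type Y box bound by NF-Y. The RefSeq promoter of H2-Ob is printed because this gene leads the list, with its CCAAT match on the minus strand, which reads ATTGG here, in capitals. It lies at chr17:34238655-34238954 of GRCm38.p6 on the plus strand, from 250 bases before to 50 after the start, and the match begins 57 bases before the start.
H2-Ob promoter: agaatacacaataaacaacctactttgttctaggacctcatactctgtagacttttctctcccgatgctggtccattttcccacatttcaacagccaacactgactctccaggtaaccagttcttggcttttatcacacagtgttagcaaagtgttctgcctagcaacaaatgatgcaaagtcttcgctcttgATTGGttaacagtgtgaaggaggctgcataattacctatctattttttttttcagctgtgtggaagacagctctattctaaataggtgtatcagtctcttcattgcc
CCAAT was found on either strand in a promoter of 10 of the 12 class II genes that matched the promoter table by symbol, 83.3%. This compares with 41.1% of all 27025 genes with a promoter and 43.3% of the 7342 counted genes with one. A match of letters is a description and was not tested as a binding site.

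Class I genes, NF-kB genes and interferon response genes also had positive medians. Of 19 class I presentation genes 14 were higher, with a median of 0.20. At least 1.5-fold higher was 1 of the 19, against 4.4% of all genes. It was H2-M2, a class I gene of the M region, at 9175 with SB202190 and 6114 with DMSO. The NF-kB list had 20 of 23 genes higher, with a median of 0.28 and 5 (against 4.4% of all genes) at least 1.5-fold higher. Among them Rel, which encodes c-Rel, had 203 with SB202190 and 109.5 with DMSO, 1.85-fold higher. Relb, a subunit of the non-canonical pathway, had 1666 with SB202190 and 1048 with DMSO, and Map3k14, the kinase that opens that pathway, had 2390.3 with SB202190 and 1441 with DMSO. Of 24 interferon response genes 19 were higher, with a median of 0.24. The antiviral genes Rsad2, at 155 with SB202190 and 76.8 with DMSO, and Mx2, at 199 with SB202190 and 114 with DMSO, were at least 1.5-fold higher, as was the GTPase gene Gbp2 at 8624 with SB202190 and 5385 with DMSO. Isg15, a ubiquitin-like protein of the same response, was lower at 89.8 with SB202190 and 135 with DMSO.

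Receptors and signal proteins for growth factors had a positive median as well. Of 21 myeloid growth factor receptors 15 were higher, with a median of 0.19, and 4 (against 4.4% of all genes) were at least 1.5-fold higher. Besides Kit they were Il7r, the IL-7 receptor chain, at 2612 with SB202190 and 1581 with DMSO, Il6st, the shared receptor chain gp130, at 213 with SB202190 and 131 with DMSO, and Il2ra, the IL-2 receptor alpha chain, at 115 with SB202190 and 73.6 with DMSO. Of 17 SOCS and STAT genes 13 were higher, with a median of 0.13. Socs2, a feedback inhibitor of cytokine receptors, had 12964 with SB202190 and 8196 with DMSO, and Stat4, the factor downstream of IL-12, had 1948 with SB202190 and 1154 with DMSO. Of 19 survival and death genes 14 were higher, with a median of 0.12 and 0 at least 1.5-fold higher, while Bcl2l1, which encodes the survival protein Bcl-xL, was lower at 156 with SB202190 and 239 with DMSO.

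**Figure D4:**
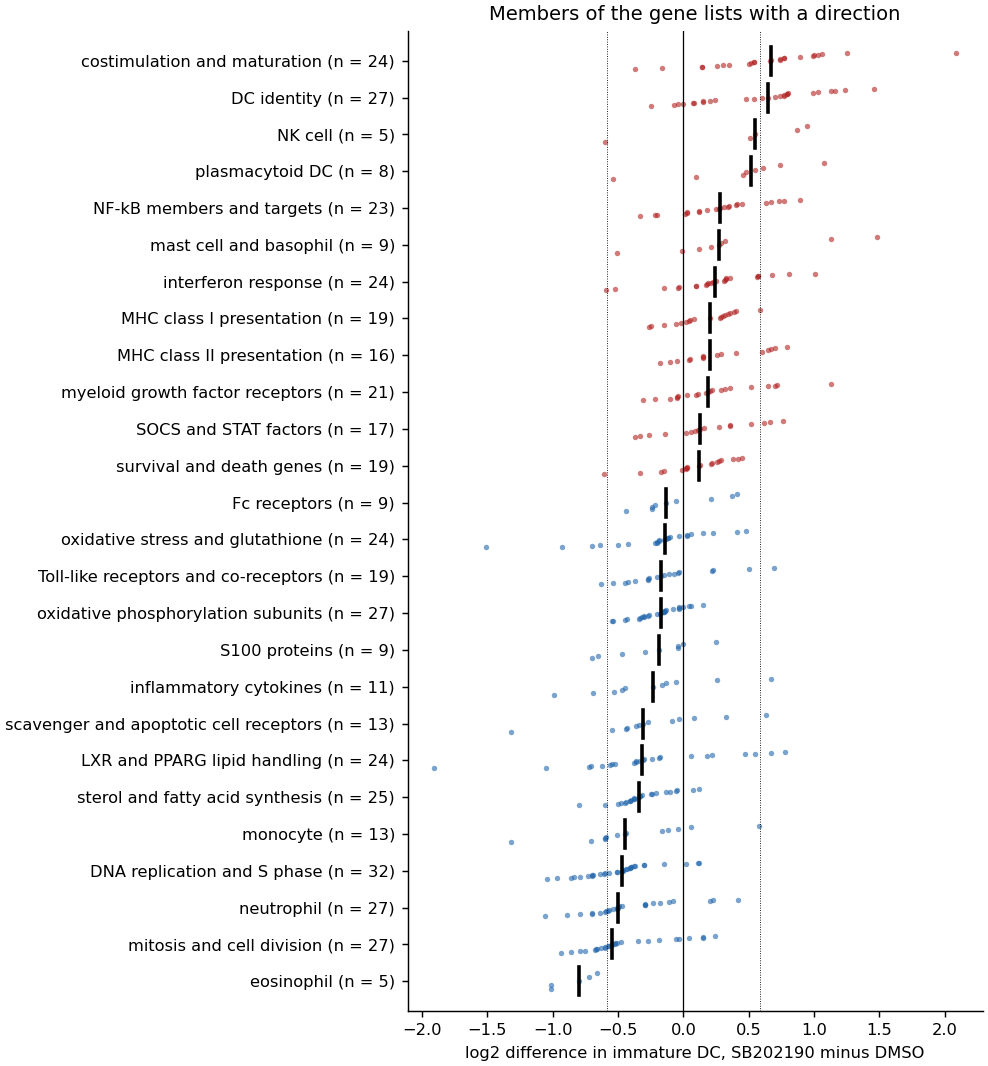
Log2 difference, SB202190 minus DMSO in immature DC, of the counted members of the 26 gene lists with a direction (rows, with the number of members); points are genes, thick bars are list medians, and dotted lines mark a 1.5-fold difference. The 12 lists in red have medians from 0.12 to 0.67 and the 14 in blue from -0.80 to -0.13.

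Genes of lipid handling under the nuclear receptors LXR and PPARG were lower with SB202190. Of 24 LXR and PPARG lipid handling genes 17 were lower and 7 higher, with a median log2 difference of -0.32, and 5 were at least 1.5-fold lower, against 4.44% of all genes, while 2 were 1.5-fold higher. Nr1h3, which encodes the oxysterol receptor LXR alpha, was not above background with SB202190 (44.0) and had 165 with DMSO, at least 3.72-fold lower. Pparg, the receptor that drives fatty acid uptake and storage genes, had 415 with SB202190 and 680.1 with DMSO, 1.64-fold lower. Angptl4, a PPAR target that inhibits lipoprotein lipase, had 82.8 with SB202190 and 171 with DMSO, 2.07-fold lower. Apoc2, the cofactor of lipoprotein lipase, had 263 with SB202190 and 405 with DMSO. The exceptions were Cyp27a1, a sterol hydroxylase, at 1274 with SB202190 and 801 with DMSO, and Mylip, the ligase that degrades the LDL receptor, at 45.1 with SB202190 and not above background with DMSO (26.3).

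The genes of sterol and fatty acid synthesis were lower by smaller steps. Of 25 counted 23 were lower and 2 higher, with a median of -0.34 and 2 (against 4.44% of all genes) at least 1.5-fold lower. These were Tm7sf2, a sterol reductase, and Idi1, an isomerase of the isoprenoid pathway, and both were dim and not above background with SB202190 (39.1 and 30.4) against 68.1 and 46.1 with DMSO. The sterol response motif TCACNCCAC was found in 0 of the 19 genes of the list with a promoter, against 1.44% of all genes with one. No match says only that these letters are not in this window. Among 27 subunits of oxidative phosphorylation 24 were lower, with a median of -0.17 and 0 at least 1.5-fold different.

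Proteases, scavenger receptors and metabolic enzymes of macrophages included several of the largest negative differences, whereas the macrophage markers as a list had no direction. Ctsk, a lysosomal cysteine protease that cleaves collagen, had 207 with SB202190 and 558 with DMSO, 2.70-fold lower. Marco, a scavenger receptor for bacteria and particles, was not above background with SB202190 (35.7) and had 88.9 with DMSO, at least 2.01-fold lower. Mrc1, the mannose receptor, had 3402 with SB202190 and 5818 with DMSO, 1.71-fold lower. Arg1, the arginase of alternatively activated macrophages, had 1543 with SB202190 and 3639 with DMSO, 2.36-fold lower, and its other probe was lower by 1.22 on the log2 scale. Of the 20 macrophage markers counted 10 were higher and 10 lower, with a median of 0.01, and Cd163, Maf and Folr2 were not above background. Their summed intensity was 128140 with SB202190 and 131810 with DMSO. Among the higher members were the complement genes C1qa, at 1054 with SB202190 and 707 with DMSO, C1qb, at 10512 with SB202190 and 8307 with DMSO, and C1qc, at 5755 with SB202190 and 4118 with DMSO. Apoe, a lipoprotein component, had 437 with SB202190 and 299 with DMSO, and Fcgr1, the high-affinity IgG receptor, had 1501 with SB202190 and 1158 with DMSO. Adgre1, which encodes F4/80, had 1606 with SB202190 and 1192 with DMSO, with another probe at a log2 difference of -0.10.

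Other lists of phagocyte functions had negative medians. Of 13 scavenger and apoptotic cell receptors 10 were lower, with a median of -0.31. The list's exception past 1.5-fold was Cxcl16, a membrane-bound chemokine that also binds oxidized lipoprotein, at 7607 with SB202190 and 4921 with DMSO. Of 19 Toll-like receptors and co-receptors 15 were lower, with a median of -0.17, among them Tlr4, the receptor for lipopolysaccharide, at 795 with SB202190 and 1235 with DMSO. Ly86, the partner of the receptor homologue RP105, was higher at 3211 with SB202190 and 1997 with DMSO. Of 9 Fc receptors 6 were lower, with a median of -0.13 and 0 at least 1.5-fold different. Of 24 oxidative stress genes 17 were lower, with a median of -0.14. They included Gpx3, the secreted glutathione peroxidase, at 230.0 with SB202190 and 656 with DMSO, 2.85-fold lower, and Nqo1, a quinone reductase under NRF2, at 68.2 with SB202190 and 129 with DMSO.

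The transcripts of the p38 pathway itself had no direction. Mapk14, which encodes p38 alpha, had 2188 with SB202190 and 2383 with DMSO, and its substrate kinase Mapkapk2 had 2374 with SB202190 and 2346 with DMSO. Map2k6, a kinase upstream of p38, had 73.3 with SB202190 and 75.8 with DMSO, and Mapk11, p38 beta, was not above background on either array. Dusp1, a phosphatase that switches p38 off, had 2141 with SB202190 and 2318 with DMSO. Of 24 pathway genes 14 were higher and 10 lower, with a median of 0.07. At least 1.5-fold higher was 1 of the 24, against 4.4% of all genes. It was Gadd45b, an activator of upstream kinases, at 909.6 with SB202190 and 529 with DMSO. Transcript levels of these genes leave the activity of the kinase unmeasured, so they are no check of the inhibition.

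Among immediate early genes, a class that MAP kinases switch on, single members differed widely while the list did not have a direction (11 higher, 13 lower, median -0.08). Fos, a subunit of AP-1, had 209 with SB202190 and 606 with DMSO, 2.90-fold lower. Egr1, a zinc finger factor, had 2012 with SB202190 and 3433 with DMSO, 1.71-fold lower. Klf4, a factor of monocyte differentiation, had 284 with SB202190 and 449 with DMSO, and its other 2 probes were lower by 0.64 and 0.69 on the log2 scale. Others were higher: Dusp5, an ERK phosphatase, at 1424 with SB202190 and 939 with DMSO, and the orphan nuclear receptor genes Nr4a2, at 87.8 with SB202190 and 50.2 with DMSO, and Nr4a3, at 78.2 with SB202190 and 49.6 with DMSO.

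Cytokine transcripts of the IL-1 type were lower with SB202190. Of 11 inflammatory cytokines counted 9 were lower and 2 higher, with a median of -0.23. Il1a, an alarmin, had 205 with SB202190 and 406 with DMSO, 1.98-fold lower. Osm, oncostatin M, had 1409 with SB202190 and 2269 with DMSO, 1.61-fold lower. Il1b had 1893 with SB202190 and 2724 with DMSO, 1.44-fold lower, and Tnf had 438 with SB202190 and 489 with DMSO, while another Tnf probe was lower by 0.78 on the log2 scale. Il6 and Il10 were not above background on either array, and no named probe stood for Il12b. Tnfsf13b, the B cell factor BAFF, was higher at 627 with SB202190 and 394 with DMSO. Outside this list, the IL-1 receptor antagonist gene Il1rn was lower too, at 713 with SB202190 and 1139 with DMSO, 1.60-fold. Its other probe was lower by 0.38 on the log2 scale.

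Chemokines were split. Of 16 counted 6 were higher and 10 lower, with a median of -0.33 and no direction by the rule used here, which asks that at least 2 in 3 members share the sign. Against 4.44% of all genes, 5 of the 16 were at least 1.5-fold lower. They included the neutrophil attractants Cxcl1, at 106 with SB202190 and 184 with DMSO, and Cxcl2, at 205 with SB202190 and 372 with DMSO. Ccl3, which attracts monocytes and T cells, had 982 with SB202190 and 1761 with DMSO. Ccl6 had 3390.2 with SB202190 and 5659 with DMSO. The fifth, Ccl7, was lower by 0.69 with one probe and higher by 0.08 with the other, on the log2 scale. Ccl22 and Cxcl16 were at least 1.5-fold higher.

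Proliferation genes were lower with SB202190. Of 27 mitosis and cell division genes 23 were lower and 4 higher, with a median log2 difference of -0.55, and 10 were at least 1.5-fold lower, against 4.44% of all genes. Cdk1, the kinase that drives entry into mitosis, had 550.4 with SB202190 and 1053 with DMSO, 1.91-fold lower. Aurkb, a kinase of chromosome segregation, had 411.5 with SB202190 and 712 with DMSO. Birc5, which encodes survivin, a partner of that kinase, had 1566 with SB202190 and 2505 with DMSO. Tpx2, a spindle assembly factor, had 61.4 with SB202190 and 112 with DMSO.

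The genes of DNA replication were lower as well. Of 32 counted 29 were lower and 3 higher, with a median of -0.47, and 12 were at least 1.5-fold lower, against 4.44% of all genes. Tyms, thymidylate synthase, had 349 with SB202190 and 714 with DMSO, 2.05-fold lower, and its other probe was lower by 1.05 on the log2 scale. Ccne2, a cyclin of S phase entry, had 61.1 with SB202190 and 119.9 with DMSO. Cdc45, part of the replicative helicase, had 119.8 with SB202190 and 218 with DMSO. Rpa2, a single-strand binding protein, was lower by 0.84, though another of its probes had 0.01.

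Cell cycle promoters are known for the CHR element TTTGAA, which binds the DREAM and MuvB complexes at mitotic genes, and for E2F sites such as TTTNGCGC at replication genes. The promoter of Cdk1 is shown for the mitosis list and that of Mcm5, a helicase subunit at 1169 with SB202190 and 1822 with DMSO, for the replication list, because these genes have a large difference and hold the motif of their list. Both come from RefSeq on GRCm38.p6 and run from 250 bases before to 50 after the start, with motif matches in capitals. Cdk1 lies at chr10:69352863-69353162 on the minus strand, with matches that begin 71 and 15 bases before the start. Mcm5 lies at chr8:75109259-75109558 on the plus strand, with overlapping matches on both strands that begin 153 and 149 bases before the start.
Cdk1 promoter: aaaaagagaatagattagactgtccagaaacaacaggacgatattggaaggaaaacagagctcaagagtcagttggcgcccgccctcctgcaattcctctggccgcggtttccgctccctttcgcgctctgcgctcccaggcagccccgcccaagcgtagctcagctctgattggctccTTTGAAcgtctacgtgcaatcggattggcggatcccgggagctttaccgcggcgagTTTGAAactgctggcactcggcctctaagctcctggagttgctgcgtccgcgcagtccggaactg
Mcm5 promoter: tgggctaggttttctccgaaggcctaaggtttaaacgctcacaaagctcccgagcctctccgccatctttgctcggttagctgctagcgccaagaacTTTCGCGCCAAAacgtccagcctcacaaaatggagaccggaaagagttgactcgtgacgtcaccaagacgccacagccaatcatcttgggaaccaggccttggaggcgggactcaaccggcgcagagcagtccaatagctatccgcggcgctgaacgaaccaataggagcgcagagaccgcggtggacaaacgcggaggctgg
The CHR letters were found on either strand in a promoter of 16 of 23 mitosis genes, 69.6%. This compares with 20.2% of all genes with a promoter and 14.4% of counted genes with one. Among the mitosis genes at least 1.5-fold lower, 7 of the 8 with a promoter held them. The E2F letters were found in a promoter of 7 of 26 replication genes, 26.9%, against 1.57% and 3.08%. Among the replication genes at least 1.5-fold lower, 1 of the 10 with a promoter held them, Mcm5.

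Most markers of granulocytes and monocytes were lower with SB202190 in the same pair of arrays. Of 27 neutrophil and granule markers counted 24 were lower and 3 higher, with a median of -0.50. At least 1.5-fold lower were 8 of them, against 4.44% of all genes. The 3 higher were receptor genes. Cxcr2 had 152 with SB202190 and 114 with DMSO, and Il1r2 had 1504 with SB202190 and 1284 with DMSO. Csf3r had 381 with SB202190 and 331 with DMSO. Mmp8, Stfa3 and Padi4 were not above background. Mpo, myeloperoxidase, had 549 with SB202190 and 894 with DMSO, and the granule proteases Prtn3, at 248 with SB202190 and 459.7 with DMSO, and Ctsg, at 181 with SB202190 and 295 with DMSO, were alike. Stfa1, a stefin protease inhibitor of a family with near-identical members, had 1736 with SB202190 and 3620.4 with DMSO.

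Markers of eosinophils and most of those of monocytes were lower too, and most mast cell markers were not. All 5 eosinophil markers counted were at least 1.5-fold lower, with a median of -0.80 and a summed intensity of 4510.2 with SB202190 and 7809.6 with DMSO, whereas Siglecf, Ccr3, Il5ra and Alox15, which define mature eosinophils, were not above background. Prg2, the major basic protein of eosinophil granules, had 3228 with SB202190 and 5334 with DMSO, and Epx, eosinophil peroxidase, had 100.4 with SB202190 and 159 with DMSO. The ribonuclease genes Ear10, at 891 with SB202190 and 1792 with DMSO, and Rnase2a, at 661 with SB202190 and 1849.9 with DMSO, come from a family whose copies are nearly the same, which makes these probes uncertain. Of 13 monocyte markers 11 were lower, with a median of -0.45 and a summed intensity of 57016 with SB202190 and 61544 with DMSO. Most of that sum was Lyz2, a lysozyme gene that macrophages share, at 39441 with SB202190 and 37853 with DMSO, and the other 12 genes summed to 17575 with SB202190 and 23691 with DMSO. The other higher monocyte gene was Cx3cr1, a chemokine receptor, at 152 with SB202190 and 101 with DMSO. Hp and Chil3 of the monocyte list are also on the neutrophil list. Ms4a3, expressed in granulocyte and monocyte progenitors, had 74.4 with SB202190 and 186 with DMSO, 2.50-fold lower. Of 9 mast cell and basophil markers 7 were higher, with a median of 0.27. The 2 lower were Mcpt8, not above background with SB202190 (37.3) and at 53.0 with DMSO, and Cd200r3, at 62.6 with SB202190 and 62.8 with DMSO. Mcpt8 is on the neutrophil list too. Those at least 1.5-fold higher were 2, Cpa3 and Kit, against 4.4% of all genes, and Kit is on the DC identity list too. Cpa3, the mast cell carboxypeptidase, had 449 with SB202190 and 161 with DMSO, 2.79-fold higher, and the summed intensity of the list was 2305.8 with SB202190 and 1523.8 with DMSO. The mast cell protease genes Mcpt1, Mcpt2, Mcpt4, Cma1, Tpsb2 and Tpsab1 and the IgE receptor chain gene Ms4a2 were not above background.

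Markers of plasmacytoid DC and lymphoid cells were few. Of 8 plasmacytoid DC genes 7 were higher, with a median of 0.52, led by Pacsin1, an endocytic adaptor, at 429 with SB202190 and 203 with DMSO. The lower gene was Tlr7, a Toll-like receptor, at 255 with SB202190 and 371 with DMSO. Ccr9, Ly6d, Irf7 and Tlr9 were not above background on either array. Cox6a2 was counted through the SB202190 array only, at 47.5 with SB202190 and 34.4 with DMSO. Siglech, a receptor that marks plasmacytoid DC, had 68.8 with SB202190 and was not above background with DMSO (41.2), at least 1.59-fold higher. Of 5 NK cell genes 4 were higher, with a median of 0.55, among them Klrk1, the receptor NKG2D, at 154 with SB202190 and 79.8 with DMSO. The lower one was Nkg7, a granule protein of cytotoxic cells, at 44.6 with SB202190 and 67.8 with DMSO, and the defining gene Ncr1 was not above background. The summed intensity of the NK cell genes was 12507 with SB202190 and 8483 with DMSO, nearly all of it from the chemokine gene Ccl5, at 11658 with SB202190 and 7944 with DMSO. The other 4 NK cell genes summed to 849 with SB202190 and 539.5 with DMSO. The plasmacytoid DC genes summed to 3312.8 with SB202190 and 2527 with DMSO. Only 3 B cell and 5 T cell markers were counted, Cd3d, Cd3e and Cd3g being below background on both arrays, and these lists had no direction.

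The genes with the largest differences also include some outside these groups. Among the 15 highest, Apol7c, an apolipoprotein L family gene, had 233 with SB202190 and 90.1 with DMSO, and Dpysl5, a cytoskeletal protein best known from neurons, had 151 with SB202190 and 56.5 with DMSO. Serpinf1, which encodes pigment epithelium-derived factor, had 578 with SB202190 and 237 with DMSO, with another probe higher by only 0.38 on the log2 scale. Sema4f, Stkld1, Dscam and Fndc7 were not above background with DMSO and were at least 2.26-fold, 1.97-fold, 1.57-fold and 1.77-fold higher. The lowest of all was Car4, a membrane-bound carbonic anhydrase, at 186 with SB202190 and 790.4 with DMSO, 4.26-fold lower.

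Among the other genes of the 15 lowest, Pmp22, a membrane protein best known from myelin, had 272 with SB202190 and 680.3 with DMSO, with another probe lower by 1.56 on the log2 scale. Prickle2, a planar cell polarity gene, had 81.8 with SB202190 and 201 with DMSO. Tmem40, Ehf, E030030I06Rik, Rarres1 and Bex2 were not above background with SB202190 and were at least 1.78-fold, 1.30-fold, 1.31-fold, 2.09-fold and 2.12-fold lower. Secreted coagulation and matrix genes that macrophages make were lower too: Fn1, fibronectin, at 2285 with SB202190 and 4366 with DMSO, and F7, coagulation factor VII, at 1069.8 with SB202190 and 2091 with DMSO. Of the 22 matrix genes counted 7 were 1.5-fold lower and 3 were 1.5-fold higher, and the list had no direction.

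In all, 26 of the 47 lists had a direction, 12 higher and 14 lower, and 21 had none; 119 genes are on more than 1 list. Of those with none, glycolysis genes had a median of -0.03 over 21 genes, lysosome and autophagy genes -0.07 over 35, ribosomal proteins 0.00 over 20, actin and motility genes -0.01 over 30 and integrins -0.04 over 12. Of 9 S100 genes 7 were lower, with a median of -0.19, among them S100a4 at 458 with SB202190 and 718 with DMSO.

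The same genes were then read on the pre-DC and mature DC arrays, which share no array with the immature DC pair. Across the 8945 genes the immature difference had a Pearson correlation of 0.35 with the mature DC difference and 0.11 with the pre-DC difference (Spearman 0.31 and 0.14). This is a description across genes, which are not independent and share probes and normalization. In the mature DC pair 413 of these genes were higher by 1.5-fold or more (4.62%) and 436 lower (4.87%). In the pre-DC pair, by the same limit, 138 were higher (1.54%) and 162 lower (1.81%).

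The genes at least 2-fold different in immature DC mostly had the same sign in mature DC. Of the 53 higher genes, 44 were above background in the mature DC pair, 37 of them (84.1%) were higher, against 48.5% of all genes above background there, and 22 at least 1.5-fold higher, with 1 at least 1.5-fold lower. Of the 47 lower genes, 39 were above background there, 33 (84.6%) were lower, against 51.3% of all genes, and 23 at least 1.5-fold lower, with 1 at least 1.5-fold higher. In the pre-DC pair 34 of the higher genes were above background, of which 16 (47.1%) were higher, against 53.9% of all genes. Of these 34 genes 3 were past 1.5-fold in that direction and 5 past it in the other. Of the lower genes 36 were above background in pre-DC, of which 30 (83.3%) were lower, against 45.9% of all genes, and 10 at least 1.5-fold lower. The median difference of the higher genes was 0.58 in mature DC and -0.06 in pre-DC, and that of the lower genes was -0.755 in mature DC and -0.255 in pre-DC.

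**Figure D5:**
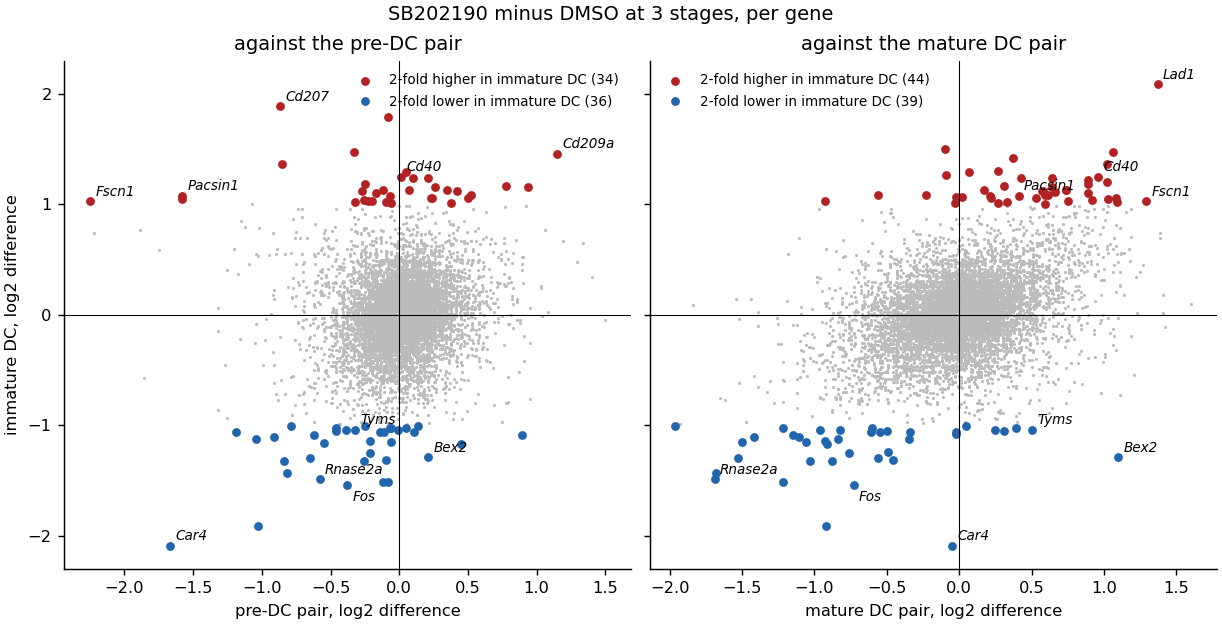
Log2 difference, SB202190 minus DMSO, of genes in immature DC (vertical axis) against the pre-DC pair (left panel) and the mature DC pair (right panel), 1 point per gene above background in both pairs; colours mark genes at least 2-fold different in immature DC. On the right, 37 of 44 red genes lie right of 0 and 33 of 39 blue genes left of it; on the left, 16 of 34 red and 30 of 36 blue genes do so.

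The medians of the lists over the 3 stages are given here side by side, and their differences between stages were not tested. Costimulation and maturation genes had medians of -0.16 in pre-DC, 0.67 in immature DC and 0.77 in mature DC, and DC identity genes 0.18, 0.65 and 0.46. Fscn1 of both lists had 44.8 with SB202190 and 213 with DMSO in pre-DC, and 10263 with SB202190 and 4211 with DMSO in mature DC. Mitosis genes had medians of 0.08, -0.55 and -0.39 in the same order of stages. Replication genes had 0.02, -0.47 and 0.15, and Tyms had 556 with SB202190 and 392 with DMSO in mature DC. Sterol synthesis genes had -0.08, -0.34 and -0.01, and LXR and PPARG genes -0.08, -0.32 and -0.49. The class II list had 0.15, 0.20 and 0.00.

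Whether a gene's difference in immature DC was unlike that at the other stages was tested with limma over the 6 arrays, as the immature DC difference minus the mean of the other 2 pair differences. The fit has 1 residual degree of freedom, which is how the pre-DC and mature DC pairs differ from each other. It called 0 of 9221 genes (0%) at an adjusted p of 0.05, the lowest adjusted p being 0.999. At an unadjusted p under 0.05 there were 290, or 3.15% of the genes, which is fewer than that threshold passes when no gene differs. The genes that follow are therefore a ranking and not calls. The highest-ranked gene was Cd207, at 2.40 (SE 0.38) on the log2 scale. Cd207 had 31.4 with SB202190 (not above background) and 57.4 with DMSO in pre-DC, and was not above background on either mature DC array. The setting limited to genes above background on all 6 arrays therefore did not test Cd207. Limma called it without background correction (adjusted p = 0.0347) and with an offset of 50 (adjusted p = 0.0151), and in no other setting tried. Next came Sema4f at 1.75 (SE 0.28), whose immature DMSO value was below background, then Gbp2b, an interferon-induced GTPase gene, at 1.40 (SE 0.27), Stkld1 at 1.45 (SE 0.29) and Scn3a, a sodium channel gene, at 1.32 (SE 0.27). On the lower side were Bex2 at -1.95 (SE 0.42), Syngr4 at -1.50 (SE 0.31), Tmem40 at -1.29 (SE 0.29) and Atp10a, a lipid flippase, at -1.19 (SE 0.27), together with Gchfr at -1.31 (SE 0.27), which was not above background on either immature DC array.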

How the data were processed

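RNA of 6 samples was hybridised to single-colour Illumina bead arrays of 45281 probes. The authors deposited intensity values that are not normalized, per the file headers the average bead signal of each probe on each array, and with them a detection p-value per probe and array. A second table deposited by the authors holds processed intensities, linear and from -51.1 to 42993 with column medians between 7.85 and 7.89. How they were made is not stated, and they served as an alternative only. Total RNA was purified with Trizol and RNeasy columns, per the labels' protocols.

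Intensities were background-corrected with limma 3.58.1 in R 4.3.3 (normexp guided by the detection p-values, offset 16), quantile normalized over the 6 arrays and put on the log2 scale. A platform table named 34885 probes with 1 gene symbol, and 18 probes with several symbols and 10378 unnamed ones were not used. Of several probes of a gene, the one brightest on average over the 6 arrays was taken. For a gene below background on 1 array, the fold is a bound against the lowest signal above background on that array or the probe's own signal, whichever was higher, and with both below there is no fold.

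Between 14623 and 15328 probes were above background per array, 15120 on the immature SB202190 array and 15328 on the immature DMSO array, whose median intensities before normalization were 130.03 and 142. The number of arrays limits the precision. No replicate exists within a stage, so no p-value is given there. The difference between stages was tested with limma (lmFit, eBayes with a prior of 4.66 degrees of freedom, Benjamini-Hochberg) on 9221 genes above background on at least 2 arrays. Nothing says that cultures were independent. Those p-values are scaled by how the pre-DC and mature DC pair differences differ, moderated over genes, and by no spread between replicate cultures. That scale may hold stage as well as technical differences. The scripts were tested on simulated data.

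Named genes were the 15 highest and 15 lowest differences, up to 6 members in each direction of each list past 1.5-fold, a fixed set of DC and p38 genes, and up to 5 genes in each direction of the stage test; Mcm5 was named by the rule for promoters, the largest difference on a list with the list's motif. The members, the 47 lists and the rules were chosen with earlier results of these data known. A list was given a direction where its median was at least 0.1 from 0, at least 5 members were counted and at least 2 in 3 shared the sign. Promoters came from a RefSeq table (GRCm38.p6), with both strands searched. The alternatives were other background corrections, scalings, filters on dim probes, probe rules and sources of values.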

Additional observations from a re-analysis of the deposited data

Results flagged for a closer look

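Some results had one sign in the immature DC pair and the opposite sign in another pair, and these differences between stages were not tested for the lists. In the pre-DC pair the median log2 difference, SB202190 minus DMSO, was -0.16 for costimulation and maturation genes, against 0.67 in immature DC. It was -0.28 for mast cell and basophil markers, against 0.27, and -0.39 for plasmacytoid DC markers, against 0.52. In the mature DC pair it was 0.15 for DNA replication genes, against -0.47 in immature DC, and -0.10 for myeloid growth factor receptors, against 0.19.

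Among single genes of the same kind were Cd83, with -2.22 in pre-DC and 0.74 in immature DC, and Ccr7, with -0.92 and 0.74. Cd207 had -0.87 and 1.89 in the same order, and Apol7c -0.85 and 1.37. Others were Fscn1, with -2.25 and 1.03, H2-M2, with -1.75 and 0.59, and Pacsin1, with -1.58 and 1.08. Bex2 had 1.10 in mature DC and -1.29 in immature DC, and Clec9a had -1.11 and 0.70. The genes given are examples. For the genes, limma's test of immature DC against both other pairs gave an adjusted p of 0.999 each, and the pre-DC pair alone was not tested. Each value rests on 1 array a side. Ccr7, Cd207 and H2-M2 were above background on the DMSO array only in pre-DC. Bex2 was below background on the immature SB202190 array and on the mature DMSO array.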

How the results depend on the processing

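Signs of the named genes were stable and counts were not. Most of these genes were named for a large difference, so a change of sign was unlikely from the start. Without background correction, 107 genes were at least 1.5-fold higher and 84 lower, and 8 were at least 2-fold higher and 10 lower, against 394, 397, 53 and 47. With an offset of 50 these counts were 199, 181, 23 and 17. With the mean of all probes of a gene they were 228, 268, 25 and 30, and with genes above background on both arrays 30 were at least 2-fold lower. The other settings stayed within 1.5 times each count, among them 75th percentile scaling, the authors' processed values, normalization of the immature DC arrays alone, no filter and a detection p under 0.05. The limma test between stages called 1 gene (Cd207) without background correction and with an offset of 50, and 0 in the others. Of 1152 values of 192 named genes 1 changed sign, and 220 moved by more than 0.20, the SD between probes. The change of sign was that of Zbtb46 with the mean of all probes (-0.01), which takes in probes not above background on either immature DC array. Of 423 list medians 0 changed sign and 15 moved. In some settings 11 lists lost their direction: survival and death genes in 4, Fc receptors in 3, oxidative stress, Toll-like receptor, growth factor receptor, SOCS and STAT, and mast cell lists in 2 each, and LXR and PPARG, S100, NK cell and plasmacytoid DC lists in 1 each. The cause of these shifts was not tested. Leaving out the pre-DC or the mature DC pair leaves no residual degrees of freedom, so the stage test was not run that way. A fit of SB202190 against DMSO with stage as a block tests the average over the 3 stages, not immature DC, and was not run.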
